A study of Homo sapiens with 30 samples.

Results

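The genes described here are the 84 human genes that encode the proteins of the cytosolic ribosome and their close paralogs, followed over 30 RNA-seq libraries of A549 cells. They were taken from the 60675 rows of the deposited gene table as protein-coding genes with a ribosomal protein symbol (RPL, RPS, RPLP0, RPLP1, RPLP2 or RPSA), without genes of chromosome Y and without the RPS6K kinases. By role they are 31 small subunit genes, 43 large subunit genes, 3 genes of the acidic stalk and 7 paralogs (RPL3L, RPL7L1, RPL10L, RPL22L1, RPL26L1, RPL39L and RPS27L). A filter on low counts kept 83 of them among 17701 genes tested, and RPL10L was not kept. The rule follows symbols only, so that RPL36AL and FAU, for example, which also encode ribosomal proteins, lie outside it.

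A549 is an epithelial line from a human non-small cell lung carcinoma. Cells were treated for 24 h with the ethanol extract of 1 of 4 tonifying formulas of Korean medicine: Palmul-tang, Sibjeondaebo-tang, Samul-tang and Sagunja-tang. Each was given at 20 µg/mL (low), 100 µg/mL (medium) and 500 µg/mL (high). Palmul-tang joins the herbs of Samul-tang and Sagunja-tang, and Sibjeondaebo-tang adds further herbs to Palmul-tang. The control is the vehicle, dimethyl sulfoxide, for 24 h, at 0.1% per the sample labels, whereas the text of the series gives 2%. The vehicle and each dose of Palmul-tang and Sibjeondaebo-tang had 3 libraries, each dose of Samul-tang had 2, and each dose of Sagunja-tang had 1. The labels do not say whether replicates were separate cultures, so p-values measure how far these libraries spread, and that spread may be technical. All libraries come from 1 cell line, and in bulk RNA a change in the mix of cells and a change in RNA per cell cannot be told apart.

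Ribosomal proteins assemble with ribosomal RNA into a small subunit, which decodes the messenger RNA, and a large subunit, which forms the peptide bond. Their messenger RNAs are among the most abundant of a growing cell and are short. Most begin with a C followed by a run of pyrimidines, the terminal oligopyrimidine (TOP) motif, through which the LARP1 protein and mTOR signalling adjust their translation and stability together. Messenger RNAs of elongation factors and of several other translation proteins carry the same motif.

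Sequences around the annotated start are shown because this motif is a feature that most members share and that the rule did not use. The windows are those of RefSeq on GRCh38.p14, which gave a window for 67 of the 84 members. Each line holds 30 bases on the gene's strand, 5′ to 3′, with 10 bases before the start and 20 bases from it in the first exon. Capitals mark an unbroken run of at least 5 C or T bases that covers the start. The first 9 lines have such a run and the last 3 do not. The last 3 are all paralogs, but members that are not paralogs, such as RPS4X, RPL32 and RPS15, also had no such run.
RPL39: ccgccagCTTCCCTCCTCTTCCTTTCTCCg
RPLP2: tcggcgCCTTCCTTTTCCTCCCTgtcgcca
RPS3: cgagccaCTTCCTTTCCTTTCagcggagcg
RPL28: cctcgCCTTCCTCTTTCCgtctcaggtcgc
RPL18: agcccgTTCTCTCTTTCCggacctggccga
RPS6: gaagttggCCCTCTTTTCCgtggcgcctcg
RPLP0: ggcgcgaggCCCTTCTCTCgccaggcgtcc
RPSA: tgccgcctgTCTTTTCCgtgctacctgcag
RPL22L1: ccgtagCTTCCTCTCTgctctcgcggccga
RPS27L: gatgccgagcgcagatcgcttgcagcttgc
RPL7L1: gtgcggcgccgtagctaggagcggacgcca
RPL26L1: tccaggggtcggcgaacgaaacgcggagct

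These windows lie at chrX:119791611-119791640 on the minus strand for RPL39, at chr11:809957-809986 on the plus strand for RPLP2 and at chr11:75399508-75399537 on the plus strand for RPS3. Those of RPL28 and RPL18 lie on chromosome 19 at chr19:55385922-55385951 (plus) and chr19:48619159-48619188 (minus). RPS6 lies at chr9:19380217-19380246 (minus), RPLP0 at chr12:120201092-120201121 (minus) and RPSA at chr3:39406710-39406739 (plus). The paralogs lie at chr3:170870176-170870205 (RPL22L1, minus), chr15:63157458-63157487 (RPS27L, minus), chr6:42879606-42879635 (RPL7L1, plus) and chr5:172958719-172958748 (RPL26L1, plus). The run was 22 bases long in RPL39, 17 in RPLP2 and 8 in RPSA, and a C stood at the annotated start in 49 of the 50 members with a run. A run of this kind was present in 50 of the 67 members with a window (74.6%) and in 3258 of 27305 gene symbols of the whole table (11.9%). RPL22L1 had a run of 10 bases, whereas RPS27L, RPL7L1 and RPL26L1 had G at the start and no run. In the full windows of 250 bases before and 50 after the start, searched on both strands, CCGGAAG was found in 35.8% of members and 12.2% of all symbols, CTTTCC in 46.3% and 30.2%, and AAGATGGC in 10.4% and 3.52%. GGGCGG was found in 58.2% and 48.3%, and TATAAA in 10.4% and 14.0%. CTTTCC can overlap the run at the start, and a match describes the letters only.

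Library totals ran from 23986637 to 35159898 counts. The markers of A549 epithelium were all present, from EPCAM at 17.6 to 24.3 counts scaled to library size (CPM) to ALDH1A1 at 3860 to 5140. Of 15 markers of other cell types, none was at 0 in every library, and their sum was 16.5 to 22.5 CPM, mostly COL3A1 and DCN. PTPRC had at most 0.226 CPM, and CD3E and CDH5 at most 1 count in a library. A feature that sets libraries apart is the share of counts on long non-coding RNA genes. It was 1.07 to 1.24% in 8 libraries (the 3 vehicle libraries, the replicate 2 libraries of Samul-tang, and the high and medium doses of Sagunja-tang) and 0.743 to 0.989% in all the others. The labels give 1 batch code for all libraries.

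Members made up 5.48 to 6.35% of all counts of a library. The large subunit genes supplied 3.03 to 3.43% and the small subunit genes 2.16 to 2.53%. Of the 84 members, 77 had a mean above 100 CPM and 18 above 1000. Per kilobase of transcript, the highest levels included those of RPS2 at 3383, RPS16 at 2402, RPS27 at 2397 and RPL38 at 1802 CPM per kilobase, against a median of 782.3 over the members. RPS2 lines the channel by which messenger RNA enters the small subunit, and RPS16 reaches the decoding site. Their transcripts are short: the median length was 764.25 bases (359 to 4122.5), against 2535.5 for all protein-coding genes tested. GC content ran from 41.0 to 62.4%, and the members lie on 21 chromosomes.

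The paralogs were less abundant per kilobase than their parents, which ranged from 241.4 for RPL22 to 2397 for RPS27. RPS27L, a p53-inducible relative of RPS27, stood at 168.8 CPM per kilobase, RPL22L1 at 66.49, RPL26L1 at 30.35, RPL7L1 at 23.58 and RPL39L at 14.51. RPL3L, known from striated muscle, had 0.09011 to 0.5585 CPM. RPL10L, an intronless relative of RPL10 known from testis, was at 0 counts in all 30 libraries, which allows up to 0.125 CPM in the shallowest and 0.0853 in the deepest, for counting error only. Reads shared with near-identical copies are divided by the counting, so that low paralogs and pseudogenes are uncertain. Named pseudogenes exist for 77 members. Their counts came to 2.06% of the members' counts, but to 74.4% of those of RPL23A, 29.7% of RPL36A and 12.9% of RPL22, whose values are the least certain. Exonic bases on the same strand were shared with another gene in 35 members, for 24 of them with small nucleolar RNA genes, and 30 overlapped exons of a gene on the opposite strand.

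Across the doses of Sibjeondaebo-tang the ribosomal protein transcripts rose as a group at the high dose. Between the low and the high dose 54 of 83 members rose and none fell, by the edgeR quasi-likelihood test with adjusted p under 0.05, where 38.4% of all genes tested were called (18.5% higher and 19.9% lower). The median change, after TMM scaling of the libraries, was 0.218 on the log2 scale, or 16.3%, against -0.01 over all 17701 genes. The members' mean share of all counts, which uses no such scaling, was 6.20% at the high and 5.92% at the low dose. All 83 fitted values were above 0, from 0.07 to 0.50. In 65 members the 3 high-dose libraries lay above the 3 low-dose libraries, as in 22.7% of all genes. By role, 16 of 31 small subunit genes rose (median 0.231), 32 of 43 large subunit genes (0.206), 2 of 3 stalk genes (0.257) and 4 of 6 paralogs (0.215).

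**Figure D1:**
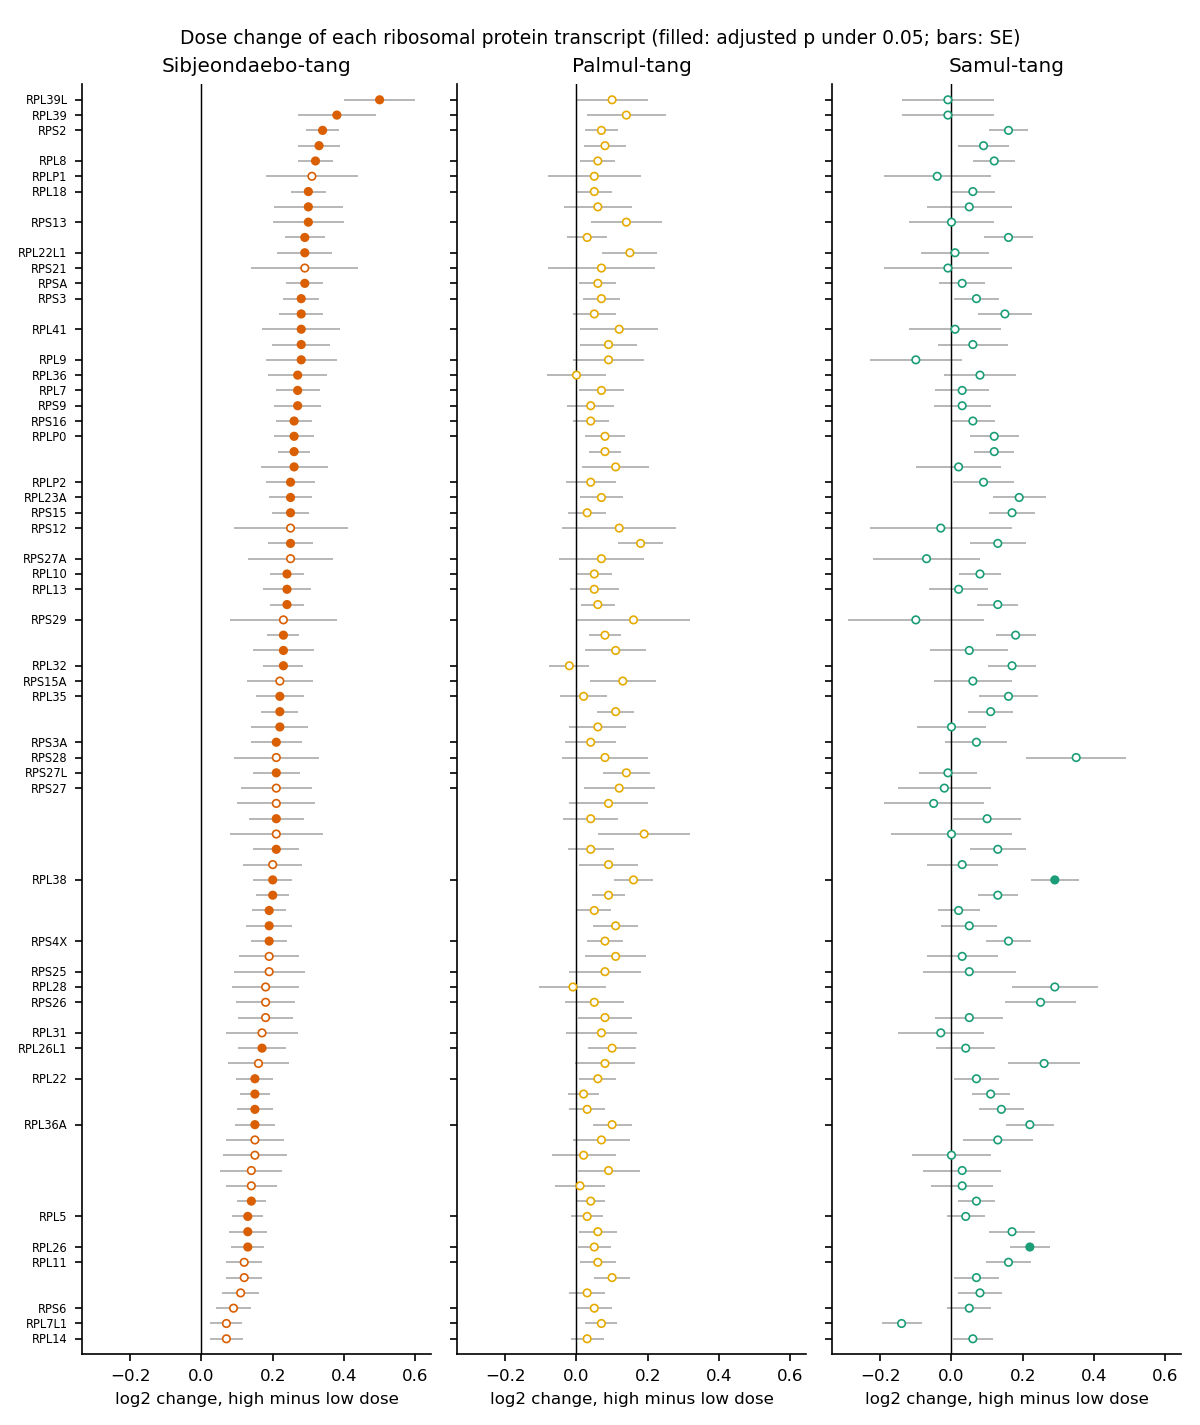
Fitted log2 difference, high minus low dose, under 3 formulas for 82 ribosomal protein genes (RPL3L, at under 1 CPM, is left out), sorted by the Sibjeondaebo-tang change, with the names of the genes described in the text. Points are fitted changes with their SE, and filled points have an adjusted p under 0.05. In the left panel all points lie to the right of 0, from 0.07 to 0.50, whereas filled points are absent for Palmul-tang and number 2 for Samul-tang.

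Among the small subunit genes RPS2 changed the most. Under low-dose Sibjeondaebo-tang, RPS2 (chr16:1962052-1964860, minus strand) had 3171, 2912 and 2869 CPM, against 3650, 3827 and 3854 under high-dose extract. The groups did not overlap, and the rise was 0.34 ± 0.046 (SE) on the log2 scale, 1.27-fold, with an adjusted p of 5.47e-07. RPSA, the ribosomal protein first described as a laminin receptor, had 1129, 1194 and 1206 CPM against 1493, 1426 and 1410. It rose by 0.29 ± 0.052 (adjusted p = 3.62e-05).

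The regulated phosphoprotein of the small subunit, RPS6, is the substrate of the S6 kinases and moved least in its subunit. It had 1578, 1695 and 1682 CPM at the low and 1767, 1785 and 1713 at the high dose, a difference of 0.09 ± 0.05 with an adjusted p of 0.174. The libraries did not overlap, but the change did not pass the test. RPS4X, encoded on the X chromosome, had 1255, 1149 and 1040 CPM against 1296, 1308 and 1327 and rose by 0.19 ± 0.051 (adjusted p = 0.00331). RPS27A, made as a fusion with ubiquitin, had 377.8, 468.4 and 504.4 CPM against 600.6, 519.6 and 486.4. Its groups overlapped, and the difference of 0.25 ± 0.12 did not pass (adjusted p = 0.115).

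In the large subunit the rises were led by a component of the exit tunnel. RPL39 (chrX:119786504-119791643, minus strand), a very small protein that lines the tunnel through which the new peptide leaves, had 327.0, 376.9 and 412.9 CPM at the low and 540.2, 467.1 and 445.7 at the high dose. The groups did not overlap, and RPL39 rose by 0.38 ± 0.11, 1.3-fold, with an adjusted p of 0.00878. RPL8, which sits beside the catalytic centre, had 1565, 1548 and 1440 CPM against 1826, 1927 and 1938 and rose by 0.32 ± 0.049 (adjusted p = 3.35e-06). Its error was less than that of RPL39, and each of its high-dose libraries lay above each low-dose library.

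RPL5 and RPL11 join the 5S ribosomal RNA in the particle that binds MDM2 when ribosome assembly is disturbed. RPL5 had 505.8, 499.0 and 490.4 CPM at the low and 561.6, 531.9 and 545.1 at the high dose and rose by 0.13 ± 0.044 (adjusted p = 0.0158). RPL11 had 675.6, 668.6 and 660.2 CPM against 741.5, 707.3 and 734.5, a difference of 0.12 ± 0.051 that did not pass (adjusted p = 0.0555). Both lay below the members' median change. RPL14 had the least change of the large subunit, 0.07 ± 0.046 (adjusted p = 0.269).

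The stalk binds the elongation factors. RPLP0, its base, had 1780, 1877 and 1909 CPM at the low and 2288, 2223 and 2140 at the high dose of Sibjeondaebo-tang and rose by 0.26 ± 0.056 (adjusted p = 0.000487). RPLP2 had 333.4, 372.2 and 400.8 CPM against 467.4, 428.6 and 422.2 and rose by 0.25 ± 0.07 (adjusted p = 0.00568). RPLP1 had 588.7, 734.0 and 754.8 CPM against 943.4, 801.4 and 834.0. Its groups did not overlap either, but the replicate libraries spread more and the difference of 0.31 ± 0.13 did not pass (adjusted p = 0.058).

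Paralogs took part in the rise to different degrees. RPL39L, the paralog of RPL39 known from testis and tumours, had the largest fitted change of all members. It had 8.532, 10.03 and 10.66 CPM at the low and 13.85, 12.92 and 14.62 at the high dose, without overlap, and rose by 0.50 ± 0.10, 1.42-fold, with an adjusted p of 0.000192. In the vehicle RPL39L had 11.48, 13.25 and 12.23 CPM, which overlap the high dose, and its low dose was called below the vehicle. RPL22L1 had 85.18, 90.61 and 90.11 CPM against 118.7, 103.7 and 102.2 and rose by 0.29 ± 0.077 (adjusted p = 0.00492). Its parent RPL22 also rose, by 0.15 (adjusted p = 0.0235). RPS27L rose by 0.21 ± 0.066 (adjusted p = 0.015) and RPL26L1 by 0.17 ± 0.067 (adjusted p = 0.0407). RPL7L1, a nucleolar relative of RPL7, had 94.08, 98.06 and 104.8 CPM against 108.3, 100.2 and 102.1, which overlap, and differed by 0.07 ± 0.045 (adjusted p = 0.268).

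Members that missed the threshold included some with wide spread and some with small change. Some had fitted changes near the median but a wide spread between replicates: RPS12 differed by 0.25 and RPS29 by 0.23 with replicate SDs of 0.198 and 0.195 on the log2 scale, and RPS21 by 0.29 with an SD of 0.184. Others had small changes with a small spread, such as RPL14 (SD 0.055) and RPL7L1 (SD 0.056). Over the members the median replicate SD was 0.09, against 0.105 for all genes and 0.054 for the 392 other protein-coding genes of similar abundance (mean log2 CPM of at least 8). Shorter members varied more, with a Pearson r of -0.39 between replicate SD and log2 length (and -0.64 with mean log2 CPM) across 77 members without paralogs, which share the libraries.

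Other lists of translation genes, and other short or abundant genes, rose in the same comparison. Among other TOP messenger RNAs of the translation machinery, 18 of 21 rose from the low to the high dose and none fell (median 0.223). RACK1, a scaffold on the small subunit, had 1101, 1087 and 1085 CPM at the low and 1352, 1383 and 1363 at the high dose and rose by 0.32 ± 0.042 (adjusted p = 2.48e-07). EEF2, the translocation factor, rose by 0.29 ± 0.038 (adjusted p = 3.51e-07) and EEF1G by 0.27 ± 0.041 (adjusted p = 2.49e-06). Mitochondrial ribosomal proteins, which serve another ribosome and lack the TOP motif in general, gave 50 rises and 1 fall among 78 (median 0.205), with MRPL28 at 0.35 ± 0.041 (adjusted p = 4.03e-08) and MRPS34 at 0.36 ± 0.048 (adjusted p = 5.57e-07). The single fall was that of MRPS25, by 0.42 (adjusted p = 1.46e-06).

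Genes that build the ribosome moved less evenly. Of 30 assembly factors 14 rose and 2 fell (median 0.156). FBL, the methyltransferase of box C/D particles, rose by 0.39 ± 0.046 (adjusted p = 5.6e-08) and PES1, needed for the large subunit, by 0.34 ± 0.042 (adjusted p = 1.01e-07). NOP56, a partner of FBL in the same particles, had 253.6, 275.0 and 273.5 CPM at the low and 242.2, 218.2 and 219.9 at the high dose and fell by 0.24 (adjusted p = 4.75e-05). Of 15 genes of RNA polymerase I and its factors 7 rose and 2 fell, with POLR1D at 0.22 ± 0.048 (adjusted p = 0.000371) and TAF1C lower by 0.64 (adjusted p = 9.6e-07). Of 16 regulators of TOP translation, a list that mixes positive and negative regulators, 9 rose and 2 fell. MLST8 rose by 0.35 ± 0.055 (adjusted p = 6.8e-06), EIF4EBP1 by 0.38 ± 0.065 (adjusted p = 5.56e-05) and RPS6KB2 by 0.31 ± 0.04 (adjusted p = 3.33e-07). TSC1 fell by 0.34 (adjusted p = 8.74e-06). Of 116 named pseudogenes tested, 10 were called higher and 4 lower.

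Other short or abundant genes were also shifted upwards. The 1111 protein-coding non-members of at most 1000 bases had a median of 0.153, with 406 rises and 81 falls. The 392 abundant ones had a median of 0.163, with 230 rises and 39 falls. The members' median of 0.218 lay above both, and their quartiles, 0.174 and 0.265, were closer together than those of the short genes at -0.011 and 0.258. Across members the change was related to GC content with a Pearson r of 0.34 and to log2 length with -0.23, over 77 genes that share the same libraries. Across 13937 protein-coding genes the Pearson r was 0.06 and -0.15 (Spearman rho 0.16 and -0.27).

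**Figure D2:**
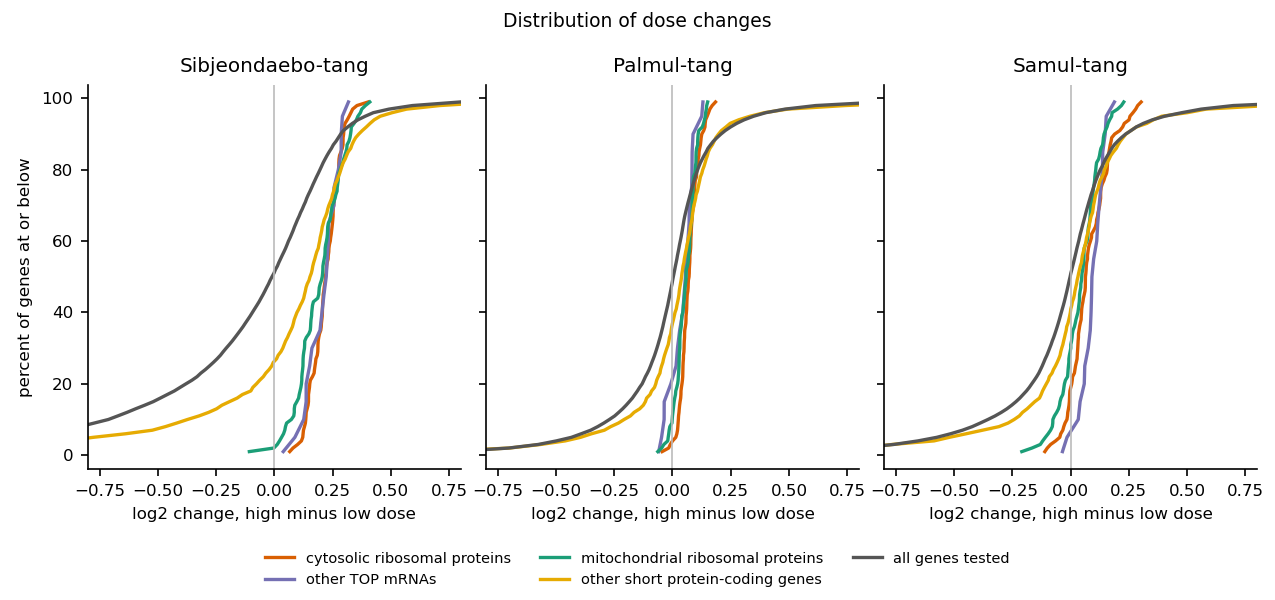
Percent of genes (vertical axis) with a log2 difference, high minus low dose, at or below a given value (horizontal axis), for 3 formulas and 5 groups of genes. For Sibjeondaebo-tang the curves of cytosolic ribosomal proteins (median 0.218), other TOP messenger RNAs (0.223) and mitochondrial ribosomal proteins (0.205) lie to the right of all genes tested (-0.01), with other short protein-coding genes between them (0.153).

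The step came between the medium and the high dose. From the low to the medium dose of Sibjeondaebo-tang no member passed the edgeR test (2 at an unadjusted p under 0.05, and none by DESeq2), the median change was 0.016, and 0.0113% of all genes were called, 0.00565% in each direction. From the medium to the high dose 43 of 83 members rose and none fell (median 0.193, where 30.6% of all genes were called, 14.2% higher and 16.4% lower). Of the 392 abundant protein-coding non-members 199 rose and 30 fell (median 0.128), so the step was not particular to the members. RPL39 had 397.1, 329.6 and 394.5 CPM at the medium dose, below each high-dose library, and rose by 0.37 ± 0.11 (adjusted p = 0.0125). RPL31 and RPL41, of the large subunit, also rose, by 0.32 ± 0.10 (adjusted p = 0.0236) and 0.31 ± 0.11 (adjusted p = 0.0328). RPL31 had 225.4, 182.7 and 202.1 CPM at the medium and 277.8, 248.0 and 233.4 at the high dose, but its low-dose values of 198.0, 228.4 and 247.7 overlap the high dose. RPLP1 had 731.3, 583.8 and 705.6 CPM at the medium dose and rose by 0.35 ± 0.13 (adjusted p = 0.0412). The calls of RPL31, RPL41 and RPLP1 were each lost without the high-dose library of replicate 1 or the medium-dose library of replicate 2 or 3. Without the medium library of replicate 2, in which the members stood lowest, 25 members passed.

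These comparisons share their libraries and are not independent of each other. A member index, the mean log2 CPM of the 83 members relative to its mean over the 30 libraries, gives this by library. At the high dose of Sibjeondaebo-tang it was 0.238, 0.161 and 0.154, above each of the other 27 libraries, which reached at most 0.071. At the medium dose it was 0.052, -0.086 and 0.003 and at the low dose -0.08, 0.01 and -0.045. As a share of all counts, members held 6.35, 6.20 and 6.05% at the high and 5.68, 6.15 and 5.94% at the low dose, so the groups overlapped in this measure. The fitted changes and the index rest on TMM scaling, whereas the share does not. The part of the scaling in the members' rise was not tested beyond the other scalings run. The share counts transcripts of mitochondrial DNA in its total. These were 18.5 to 19.9% at the high and 15.0 to 17.9% at the low dose, while the share of long non-coding RNA was 0.743 to 0.778% against 0.863 to 0.989%. The part of either in the members' rise was not tested. Without the 8 libraries of higher long non-coding share, none of them from Sibjeondaebo-tang, 54 members rose and the median was 0.221.

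**Figure D3:**
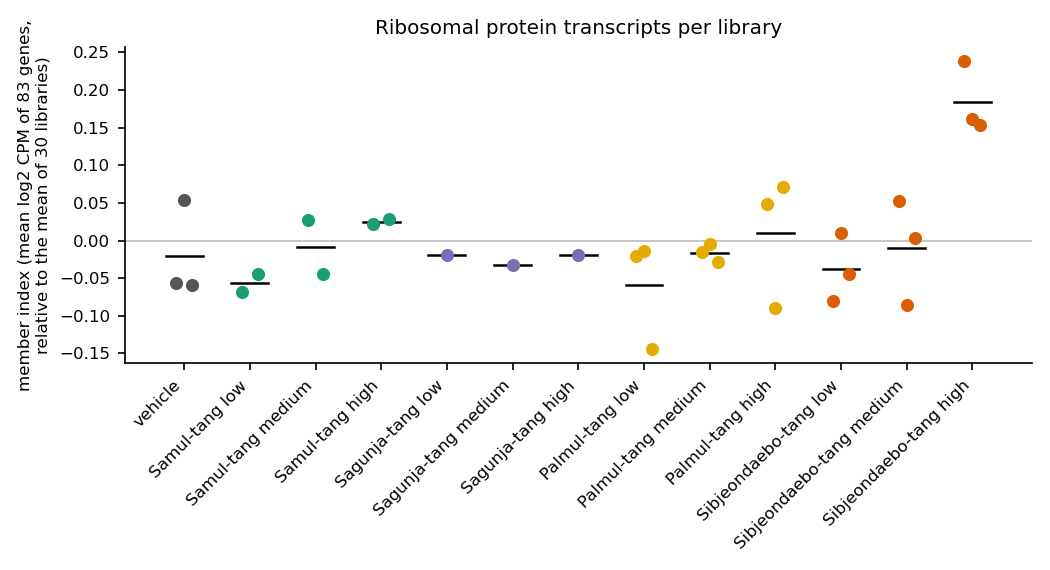
Member index of each library (points, log2 scale relative to the mean of 30 libraries), by formula and dose, with lines at the group means. The 3 high-dose Sibjeondaebo-tang libraries sit at 0.154 to 0.238, above all the other libraries.

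Few or no members passed the test between the doses of the other formulas. From the low to the high dose of Palmul-tang no member passed the edgeR test (4 at an unadjusted p under 0.05, and none by DESeq2). Of all genes 3.47% were called (1.46% higher and 2.02% lower). Fitted values were above 0 for 79 of 83 members and for 9055 of 17701 genes. The members' median change was 0.071, against 0.004 over all genes. The members' median was 0.026 without the low-dose library of replicate 3, 0.034 without the high-dose one of replicate 3 and 0.113 without the high-dose one of replicate 2. For Samul-tang RPL38 and RPL26 rose and none fell, against 1.34% of all genes (0.604% higher and 0.74% lower). The median was 0.064, against -0.002 over all genes. Fitted values were above 0 for 67 of 83 members and for 8712 of 17701 genes. At an unadjusted p under 0.05 there were 22 members of 83 and 2456 of all 17701 genes. Of the 392 abundant protein-coding non-members there were 109. In 40 members both high-dose libraries lay above both low-dose ones, as in 22.5% of all genes. The same held for 196 of the 392 abundant non-members, so the members did not stand apart from genes of similar abundance. RPL38, known from tissue-specific translation in mice, had 701.1 and 702.1 CPM at the low and 798.1 and 912.1 at the high dose and rose by 0.29 ± 0.067 (adjusted p = 0.0221). RPL26 had 985.1 and 1010 CPM against 1120 and 1210 and rose by 0.22 ± 0.056 (adjusted p = 0.0341). With 2 libraries per dose these calls were fragile: none was left without the low-dose library of replicate 2 or 3 or the high-dose library of replicate 3. For Sagunja-tang, with 1 library per dose and no test, the median difference was 0.002. There 1 member, RPL3L, lay above 0.2 log2 and 2, RPS25 at -0.30 and RPL38 at -0.20, below -0.2, against 33.8% of all genes beyond either limit (16.2% above and 17.6% below).

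At the high dose itself, Sibjeondaebo-tang exceeded Palmul-tang. Of 83 members 34 were higher and none lower (median 0.179), where 30.3% of all genes were called (14.3% higher and 16.0% lower). Of the 392 abundant protein-coding non-members 208 were higher and 23 lower (median 0.141), so the members' calls were not particular to them. RPLP1 had 623.9, 568.4 and 773.6 CPM at the high dose of Palmul-tang, below the 3 Sibjeondaebo-tang libraries, a difference of 0.39 ± 0.13 (adjusted p = 0.0249). RPL39 had 373.0, 346.3 and 417.9 CPM there and differed by 0.35 ± 0.11 (adjusted p = 0.0179). RPL39L, with 10.58, 9.583 and 11.94 CPM, differed by 0.37 ± 0.10 (adjusted p = 0.00611). RPS27A and RPL9 were among the largest differences as well, at 0.35 (adjusted p = 0.0378) and 0.31 (adjusted p = 0.0293), and for both genes the 2 groups of libraries did not overlap. Both calls were lost without the Palmul-tang library of replicate 1 or 2 or the Sibjeondaebo-tang library of replicate 1. Over 14 alternatives the call was lost in 6 for RPS27A (0.24 to 0.46), in 4 for RPL9 (0.24 to 0.40) and RPLP1 (0.30 to 0.53), in 3 for RPL39 and in 0 for RPL39L. Without the high-dose Palmul-tang library of replicate 2, whose member index was -0.09, 20 members passed and the median was 0.121.

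The difference between the 2 dose responses was tested as an interaction, which shares no library between its sides. For 10 of 83 members the dose change was larger under Sibjeondaebo-tang than under Palmul-tang and for none smaller, against 14.9% of all genes called (5.59% larger and 9.29% smaller). The median difference was 0.138, against -0.001 over all genes. It was 0.145 over the 392 abundant protein-coding non-members, of which 125 were called larger and 14 smaller. Over the 1111 short ones it was 0.11, with 103 larger and 30 smaller. RPS2 had 3083, 2956 and 2954 CPM at the low and 3207, 3172 and 3040 at the high dose of Palmul-tang, which overlap, and its responses differed by 0.27 ± 0.065 (adjusted p = 0.0037). RPL8 had 1564, 1482 and 1455 CPM against 1609, 1534 and 1557 and differed by 0.26 ± 0.069 (adjusted p = 0.00878). RPL32, of the large subunit, had 744.6, 695.0 and 649.8 CPM at the low and 727.9, 660.1 and 669.9 at the high dose of Palmul-tang, which overlap, and 678.1, 700.6 and 655.6 against 765.0, 821.1 and 800.7 under Sibjeondaebo-tang, which do not. Its responses differed by 0.25 ± 0.079 (adjusted p = 0.0268). Others of the 10 were RPL18 at 0.25, RPSA at 0.24, RPS15 at 0.22 and RPS3 and RPS16 at 0.21. The count was 3 without the high-dose Palmul-tang library of replicate 2, 4 and 6 without the low-dose ones of replicates 1 and 2, 17 without that of replicate 3, and 6 without the low-dose Sibjeondaebo-tang library of replicate 3. It was 16 with DESeq2 and 27 without the filter on low counts. The size of this difference went with GC content, with a Pearson r of 0.51 across 77 members. Across 13937 protein-coding genes it was 0.06 (Spearman rho 0.19).

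**Figure D4:**
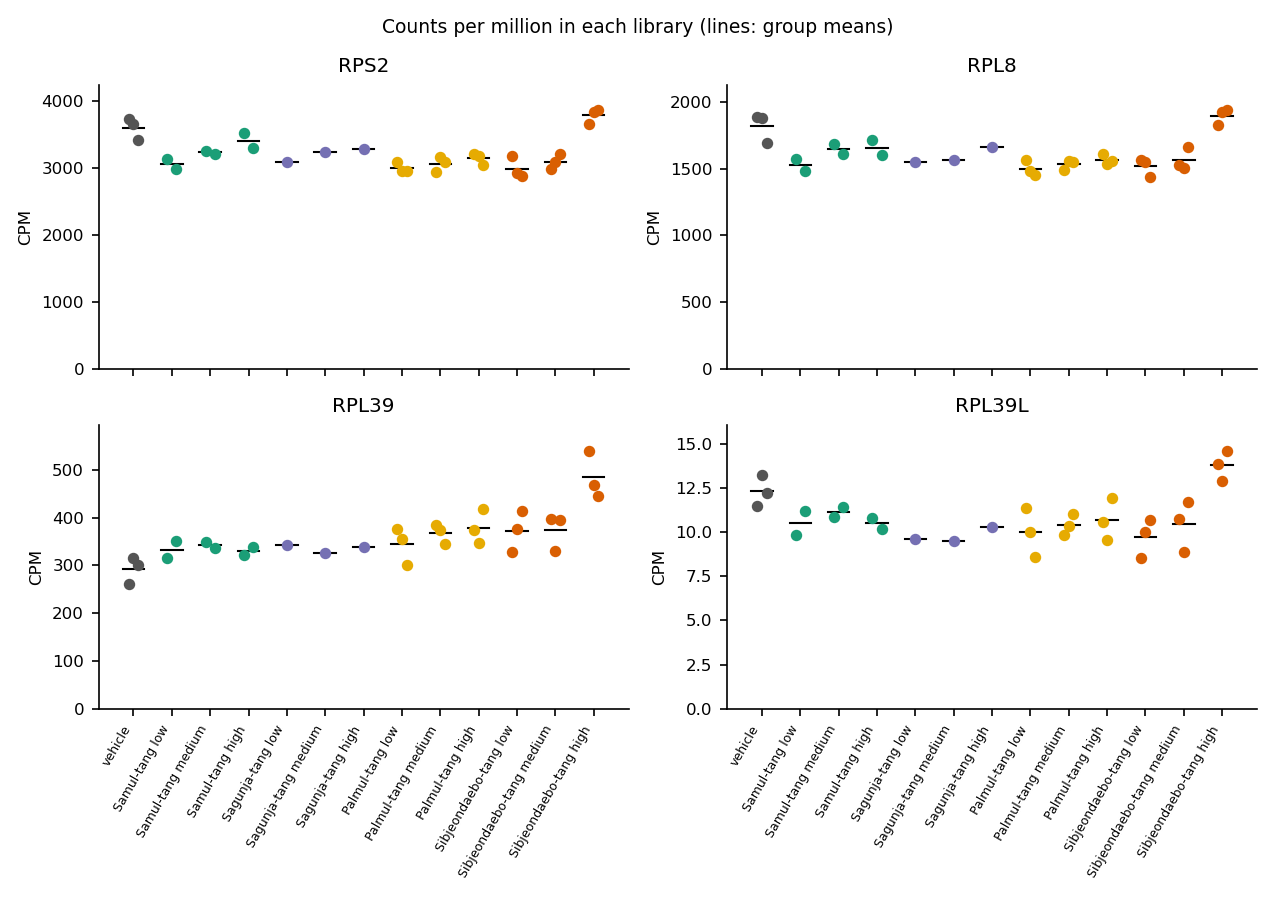
CPM of RPS2, RPL8, RPL39 and RPL39L in each library (points) with group means (lines), axes from 0. In all 4 panels the high dose of Sibjeondaebo-tang lies above its low dose without overlap. The vehicle lies near that high dose for RPS2 (3410 to 3723 CPM) and RPL8 (1691 to 1887 CPM), and below it for RPL39 (260.4 to 315.5 CPM). For RPL39L the vehicle (11.48 to 13.25 CPM) overlaps the high dose.

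Against the vehicle, which all these comparisons share, the members split by base composition. At the high dose of Sibjeondaebo-tang 48 of 83 members were higher and none lower (median 0.166), where 41.8% of all genes were called (20.0% higher and 21.8% lower). Of the 392 abundant protein-coding non-members 190 were higher and 60 lower (median 0.113). RPL39 had 260.4, 315.5 and 299.8 CPM in the vehicle and was higher at the high dose by 0.73 ± 0.11, 1.66-fold (adjusted p = 2.15e-05). RPS13, of the small subunit, had 282.8, 323.3 and 297.5 CPM in the vehicle and 508.5, 422.9 and 426.1 at the high dose, higher by 0.59 ± 0.10 (adjusted p = 0.000104). RPL22L1 had 64.97, 79.65 and 78.55 CPM in the vehicle and was higher by 0.54 ± 0.078 (adjusted p = 7.47e-06). RPSA and RPLP0 were higher by 0.41 (adjusted p = 1.63e-07) and 0.37 (adjusted p = 2.52e-06).

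For RPS2 and RPL8, both rich in GC, the high dose of Sibjeondaebo-tang did not differ from the vehicle past the threshold. RPS2 had 3723, 3648 and 3410 CPM in the vehicle, which overlap the high dose, a difference of 0.07 ± 0.046 (adjusted p = 0.22). RPL8 had 1887, 1881 and 1691 CPM in the vehicle, a difference of 0.06 ± 0.049 (adjusted p = 0.344). At the low dose both were below the vehicle, RPS2 by a log2 difference of -0.27 (adjusted p = 2.32e-05) and RPL8 by -0.26 (adjusted p = 6.43e-05). The call of RPS2 at the low dose was lost with offsets that remove the GC trend of each library (-0.05, adjusted p = 0.463).

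The other treated groups gave both directions. At the high dose of Palmul-tang 19 members were higher and 13 lower than the vehicle (median 0.039), where 37.1% of all genes were called (19.0% higher and 18.1% lower). RPL22L1 at 101.2, 85.15 and 103.6 CPM was higher by 0.38 ± 0.078 (adjusted p = 0.000571), and RPL13, at 723.2, 682.9 and 846.3 against 880.2, 935.6 and 890.5 CPM in the vehicle, was lower by a log2 difference of -0.26 (adjusted p = 0.00302). At the high dose of Samul-tang 13 were higher and 2 lower (median 0.057), where 29.2% of all genes were called (15.3% higher and 13.9% lower), with RPS4X at 1389 and 1358 against 1143, 1145 and 1094 CPM higher by 0.28 ± 0.057 (adjusted p = 0.000292). At the low doses most calls were downwards: 7 higher and 17 lower for Sibjeondaebo-tang (median -0.006), 2 and 19 for Palmul-tang (-0.026), and 1 and 16 for Samul-tang (-0.034). Of all genes 36.9% were called for Sibjeondaebo-tang (18.6% higher and 18.2% lower), 36.0% for Palmul-tang (18.2% and 17.8%) and 30.7% for Samul-tang (15.6% and 15.1%). Under low-dose Sibjeondaebo-tang RPL28 had 1082, 924.3 and 771.0 CPM against 1338, 1151 and 1079 in the vehicle, a log2 difference of -0.36 (adjusted p = 0.00483).

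Members that were higher than the vehicle in these groups included RPS3A and RPS15A of the small subunit. RPS3A had 348.8, 399.5 and 387.8 CPM in the vehicle and 436.9, 472.1 and 412.9 at the low dose of Palmul-tang, higher by 0.22 ± 0.071 (adjusted p = 0.0184). RPS15A had 403.5, 478.1 and 437.6 CPM in the vehicle and 581.5, 468.0 and 573.9 at the high dose of Palmul-tang. Its groups overlapped, with a difference of 0.30 ± 0.092 (adjusted p = 0.0147). RPS3A had a GC content of 43.8% and RPS15A of 48.4%. Both calls were lost with GC-corrected offsets (0.08 and 0.26) and without vehicle replicate 1, that of RPS3A also without the low-dose library of replicate 2, and that of RPS15A without the high-dose library of replicate 1 or 3.

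Members that were lower included RPL35, RPS9, RPL36 and RPL23A. RPL35, near the mouth of the exit tunnel, had 577.1, 662.0 and 643.8 CPM in the vehicle, 465.3, 553.6 and 537.3 under low-dose and 568.5, 627.7 and 619.5 under high-dose Sibjeondaebo-tang. The low dose was below the vehicle by a log2 difference of -0.27 (adjusted p = 0.00181), and the high dose overlapped it (-0.05, adjusted p = 0.565). RPS9, of the small subunit, had 385.4, 420.9 and 379.2 CPM in the vehicle, 337.3 and 326.3 at the low and 345.4 and 331.1 at the high dose of Samul-tang. It was lower at both doses, by log2 differences of -0.25 (adjusted p = 0.0104) and -0.22 (adjusted p = 0.0233). RPL36 and RPL23A at the low dose of Samul-tang differed from the vehicle by -0.32 (adjusted p = 0.0116) and -0.36 (adjusted p = 0.000174). RPL35, RPS9 and RPL36 had GC contents of 57.6, 59.5 and 62.2%, RPL23A of 49.6%. With the GC-corrected offsets the calls of RPL35 (-0.12), RPS9 at the low (-0.06) and high dose (-0.05) and RPL36 (-0.07) were lost. The calls of RPS9 and RPL36 were also lost without vehicle replicate 2 or the Samul-tang library of replicate 3, and those of RPS9 at the high dose and RPL36 without replicate 2. RPL23A kept its call under all 12 alternatives run. None of them changed how reads are divided with its pseudogenes, so its value stays among the least certain.

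The direction against the vehicle followed GC content in these groups. Across the 77 members without paralogs the Pearson r between GC content and the change was -0.61 for low-dose Sibjeondaebo-tang, -0.62 for Palmul-tang and -0.65 for Samul-tang, and -0.45, -0.63 and -0.55 at their high doses. Across 13937 protein-coding genes the Pearson r of the same relation was -0.33 to -0.49 (Spearman rho -0.47 to -0.69), so protein-coding genes at large showed a gradient of the same sign. The part of the 8 libraries of higher long non-coding share, which include all vehicle libraries, in this gradient was not tested. Nor was that of the library code prefix, which differs between the vehicle and all extracts. Of the 27 members of lowest GC content (41.0 to 47.3%) 13 were higher and 0 lower at the high dose of Palmul-tang, and of the 27 of highest (52.3 to 62.4%) 1 was higher and 11 lower. At the low dose of Sibjeondaebo-tang the counts were 6 and 0 against 0 and 12. At its high dose they were 24 and 0 against 8 and 0.

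With offsets that remove the GC trend of each library, an alternative added after the data were seen, fewer calls against the vehicle were left, among members and among all genes. For members they numbered 4 of 32 for the high dose of Palmul-tang, 7 of 15 for that of Samul-tang, and 10 of 24, 6 of 21 and 3 of 17 for the low doses of Sibjeondaebo-tang, Palmul-tang and Samul-tang, counting any member called. Over all genes, 17570 with a GC value, calls went from 6574 to 2270, from 5166 to 1791, from 6523 to 2921, from 6372 to 2544 and from 5430 to 1666 in the same order. The values of RPL36, RPL8 and RPS15 at the high dose of Palmul-tang turned from -0.25, -0.22 and -0.20 to 0.02, 0.06 and 0.06. With the same offsets 55 members were higher at the high dose of Sibjeondaebo-tang than in the vehicle and 61 rose from its low to its high dose, both with none lower, where 6728 and 7133 of all genes were called. Samul-tang counts also rested on single libraries, with 6 and 5 of 15 left without the high-dose library of replicate 2 or 3, and 4 of 17 without the low-dose library of replicate 3. The high dose of Palmul-tang gave 18 without its replicate 1 and 21 without vehicle replicate 1, and the low dose of Sibjeondaebo-tang 14 without vehicle replicate 1.

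**Figure D5:**
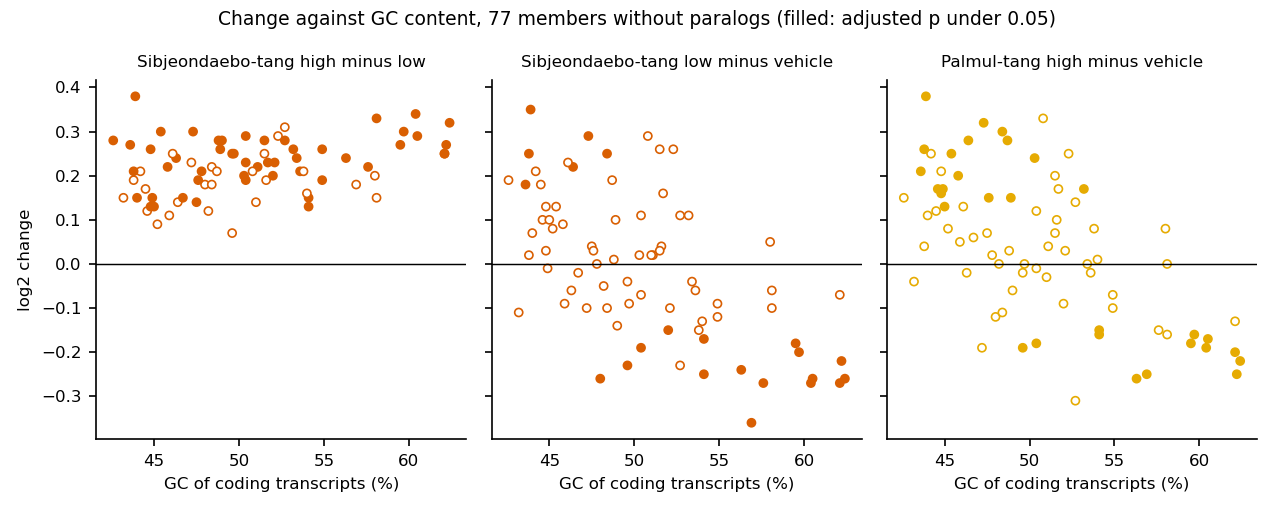
Log2 change of 77 members (paralogs left out) against the GC content of their coding transcripts in percent, for the dose change of Sibjeondaebo-tang and for 2 comparisons with the vehicle. Filled points have an adjusted p under 0.05. The change slopes down with GC content against the vehicle (Pearson r -0.61 and -0.63) and slightly up between the doses (0.34), where all points lie above 0.

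Members with a pyrimidine run over the annotated start and those with a window and no run had the same median dose response. From the low to the high dose of Sibjeondaebo-tang 30 of 50 members with a run rose (median 0.21), 11 of 16 tested members with a window and no run (0.21), and 13 of 17 members without a window (0.25). RPL39, with the 22-base run shown above, and RPL39L, for which no window was given, had the 2 largest changes. RPL22L1 with a run and RPS27L and RPL26L1 without one all rose, and RPS6 with a run of 11 bases and RPL7L1 without one did not pass. The groups by run depend on where the start is annotated: in RPL9 and RPS28, classed as without a run, a pyrimidine tract begins a few bases after it. They therefore cannot separate members with the TOP motif from members without it, and they were not tested against each other.

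Members varied together across libraries. The median pairwise Pearson r was 0.48 over 30 libraries and 0.38 for deviations from the group means, and 68 of 83 members had an r above 0.5 with the mean of the others. RPS3 and RPSA were among those that followed the mean most closely, at 0.91 and 0.89. RPL28 at -0.03, RPL3L at -0.01 and RPS28 and RPS26 at 0.08 did not follow it. The non-members most like the member mean over the 13 group means, among 5198 candidates, were RTCB, the RNA ligase of tRNA splicing (r 0.975), GLRX5, of iron-sulfur cluster assembly (0.965), EEF1G (0.964), TMEM183A (0.959) and NDUFS5, of respiratory complex I (0.957). They rose by 0.27 to 0.31 between the doses of Sibjeondaebo-tang, the contrast in which the member mean moved most.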

How the data were processed

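RNA-seq libraries of A549 cells were analysed from the expected counts per gene that the authors deposited. Per the labels' protocols the libraries were directional mRNA libraries read as 100-base pairs, and per the submitters' processing notes FastQC 0.11.9, Trim Galore 0.6.5, STAR 2.7.3a, RSEM 1.3.3 and the hg38 build were used. Which annotation release was used, and whether counting used strand, was not given in the sources used here. Another 240 sample columns of the same table were not used. RSEM divides reads that fit several genes, so that 8.5 to 9.82% of the values per library were not whole.

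Expected counts were rounded to whole numbers. Genes were kept by edgeR's filterByExpr (17701 of 60675), scaled by TMM and fitted with edgeR 4.0.16 (R 4.3.3) in 1 quasi-likelihood model with 13 groups, with Benjamini-Hochberg adjustment over all genes tested and a threshold of 0.05. The common dispersion was 0.00246. Standard errors are the log2 change divided by the square root of F. CPM values use the TMM library sizes. Symbols, GC content and lengths come from GENCODE v29, as medians over a gene's coding transcripts. Within groups, pairs of libraries differed by more than counting noise (chi-square per degree of freedom 2.24 to 19.44), so none was counted as a duplicate. The fit was tested on simulated data for the change from low to high dose of Sibjeondaebo-tang with 17701 genes: it recovered 35.1% of 74 genes changed by 0.25, 50.0% of 58 changed by 0.5 and 76.2% of 63 changed by 1 on the log2 scale, and 7.21% of its calls were unchanged genes. The simulation changed a small share of genes, drawn at any abundance, whereas 38.4% of genes were called in the data. Its rates are therefore not those for the members.

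Members and lists were chosen with earlier results of these data known. All members enter the counts and medians, but the values of some single genes are not reported here. Named members are, in each comparison, those among the 5 largest rises and falls past the threshold, the 5 most abundant per kilobase, the paralogs, the stalk proteins and RPSA, RPS27A, RPS6, RPL5, RPL11 and RPS4X. From the other lists up to 4 genes of smallest adjusted p are named, with the falls of NOP56 and MRPS25. RPL14, RPL18, RPS3, RPS25, RPS26, RPS28, RPS29, RPL22 and, outside their own comparisons, RPS12, RPS16, RPS21 and RPS15 were named after their values were seen. Alternatives were DESeq2 1.42.0, its size factors in edgeR, TMM without 202 ribosomal protein genes, pseudogenes and 3 abundant translation genes, no filter on low counts, fits of only the groups compared, a replicate block and each library left out. After the data were seen, GC-corrected offsets (lowess, span 0.3) and a fit without the 8 libraries of higher long non-coding share were added.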

Additional observations from a re-analysis of the deposited data

Results flagged for a closer look

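The response to dose was larger under Sibjeondaebo-tang than under Palmul-tang for 10 members, by the interaction term of the edgeR fit with adjusted p under 0.05, which tests the difference itself. Of all genes 14.9% were called in this test, 5.59% as larger. Of the 392 abundant protein-coding non-members 125 were called larger and 14 smaller. The count of members was 3 without the high-dose Palmul-tang library of replicate 2 and 17 without the low-dose one of replicate 3. On the log2 scale the difference was 0.27 for RPS2 (adjusted p = 0.0037), 0.26 for RPL8 (adjusted p = 0.00878) and 0.25 for RPL18 (adjusted p = 0.0141). It was 0.24 for RPSA (adjusted p = 0.0266) and 0.25 for RPL32 (adjusted p = 0.0268). RPS16 at 0.21 (adjusted p = 0.0397), RPS15 at 0.22 (adjusted p = 0.0474) and RPS3 at 0.21 (adjusted p = 0.0491) lay nearest the threshold. Under Sibjeondaebo-tang RPS3 had 849.1, 876.4 and 881.7 CPM at the low and 1096, 1014 and 1056 at the high dose, and RPS16 had 1286, 1311 and 1271 against 1559, 1526 and 1533. RPL18 had 555.7, 588.0 and 572.7 CPM against 732.4, 700.5 and 676.9. In all 3 of these the 2 doses did not overlap. Groups held at most 3 libraries, so no library was tested as an outlier within its group.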

How the results depend on the processing

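Of 177 recomputed counts of members past the threshold, 149 stayed within 1.5 times the count reported, and of 140 recomputed medians 136 moved by less than the replicate SD of 0.0562. Of 904 values of named members, 732 kept their direction and call, 169 kept the direction and lost the call, and 3 reversed. Without the filter on low counts 1 member rose for Palmul-tang between its doses, 4 for Samul-tang, and 27 differed between the 2 dose responses. With DESeq2 the counts were 4 for Samul-tang between its doses, 16 for the difference of dose responses and 23 for the high dose of Samul-tang against the vehicle. A fit of only the groups compared gave 5 for Samul-tang between its doses. GC-corrected offsets left 4 members at the high dose of Palmul-tang against the vehicle, 7 at that of Samul-tang, and 10, 6 and 3 at the low doses of Sibjeondaebo-tang, Palmul-tang and Samul-tang. They turned RPL36 to 0.02, RPL8 to 0.06 and RPS15 to 0.06 at the high dose of Palmul-tang. The cause was not tested.

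Leaving out 1 library at a time gave 41 to 57 members for Sibjeondaebo-tang high against low dose, 0 to 2 for Samul-tang, 25 to 47 for Sibjeondaebo-tang high against medium dose, 20 to 45 for Sibjeondaebo-tang against Palmul-tang at the high dose (median 0.121 to 0.224), and 3 to 17 for the difference of dose responses (0.088 to 0.195). For Palmul-tang between its doses the count was 0 throughout and the median 0.026 to 0.113. Against the vehicle it gave 38 to 50 for the high dose of Sibjeondaebo-tang, 18 to 30 for that of Palmul-tang (0.012 to 0.089) and 5 to 17 for that of Samul-tang. For the low doses it gave 14 to 29 for Sibjeondaebo-tang (-0.044 to 0.03), 15 to 21 for Palmul-tang (-0.046 to 0.031) and 4 to 17 for Samul-tang.

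Libraries of the same replicate number did not deviate together (r -0.122 to 0.089 over 111 pairs, against -0.148 to 0.137 for other pairs). This measure showed no pairing by number, but cannot exclude one. In Samul-tang the long non-coding share was 1.07 to 1.24% in replicate 2 and 0.828 to 0.922% in replicate 3. Over all genes a replicate block took the calls between low and high dose from 238 to 373 for Samul-tang. They went from 615 to 743 for Palmul-tang and from 6805 to 6865 for Sibjeondaebo-tang. With a replicate block 52 members rose for Sibjeondaebo-tang between its doses, 0 for Palmul-tang and 2 for Samul-tang, 40 for Sibjeondaebo-tang high against medium dose, and 13 differed between the dose responses. Changes near 0.2 with 3 libraries a group lie near the limit of what this design could call: of 83 members, all fitted above 0, 54 passed.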
